A study of Homo sapiens with 6 samples.

Results

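Described here are 1870 regions of the human genome at which 6T-CEM cells carried a wide peak of H3K27ac, the acetylation of lysine 27 on histone H3, and at which neither Jurkat library had a peak. They were chosen by the authors' peak positions on 2 criteria, a width of 1000 bp or more and no Jurkat peak overlapping the region or lying within 1 kb of it. Of 35154 6T-CEM peaks on chromosomes 1 to 22 and X, 10470 were that wide, and the 1870 regions made up 5.32% of all 6T-CEM peaks and 8.68% of the bases under them. The absence of Jurkat peaks is therefore how the regions were found and not a result.

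H3K27ac is laid down by the acetyltransferases p300 and CBP and marks active promoters and enhancers. Wide or clustered acetylated regions often lie at the genes that set a cell's identity, and in T-cell acute lymphoblastic leukaemia (T-ALL) such regions lie at the genes of leukaemia-driving transcription factors. BET proteins, the targets of GNE-987, the inhibitor named in the series title, bind acetylated histones at such places.

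The groups were 1 library from 6T-CEM cells and 2 libraries from Jurkat cells, all made with an H3K27ac antibody. Each line is labelled as T-ALL cells, and the series also has 3 IgG samples, which were not analysed here. The series text speaks of exposure to 10 nM for 24 h, but no label says which libraries it applies to, so any of them may come from treated or untreated cells. Each line stands for a single tumour grown in culture, and nothing says whether the Jurkat replicates were separate cultures. Because 6T-CEM has 1 library, its replicate spread was not measured and the lines were not tested against each other, so every comparison below is a description. Intervals given with shares are exact 95% Clopper-Pearson intervals that cover counting error only.

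The 3 lists held 16159 to 35154 peaks covering 16.2 to 34.3 Mb, and 6T-CEM had the longest. The lists carry no read counts, so depth is unknown. A missing peak says only that none was called. With no read signal, DNA that lacked the mark cannot be told apart from DNA that was lost or not mapped. Of 7 T-cell marker genes (CD3D, CD3E, CD3G, CD2, CD5, CD7 and LCK), 6 had a 6T-CEM peak at a gene end (1 kb or closer), 5 a Jurkat replicate 1 peak and 7 a replicate 2 peak. None of the 4 erythroid and megakaryocytic markers had one in any library. The other lists of 4 or 5 markers (B-cell, myeloid, NK-cell and non-blood) had at most 2 such genes in a library.

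Start sites of protein-coding genes with an entry in the RefSeq promoter table (GRCh38.p14, the same build as hg38) lay inside the regions 286 times, in 232 genes. The 250 bases upstream of 6 of these starts are shown because they belong to the widest or most enriched regions with a start site. They range from very rich to very poor in CG dinucleotides, which are in capitals. Each reads 5′ to 3′ on the strand of its gene.
D2HGDH, chr2:241734380-241734629, plus strand: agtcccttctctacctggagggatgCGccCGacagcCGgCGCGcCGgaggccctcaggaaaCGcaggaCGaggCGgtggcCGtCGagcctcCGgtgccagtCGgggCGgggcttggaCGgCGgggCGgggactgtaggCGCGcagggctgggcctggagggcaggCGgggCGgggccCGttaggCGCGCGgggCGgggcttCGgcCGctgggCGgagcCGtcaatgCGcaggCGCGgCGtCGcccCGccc
EGFL7, chr9:136658606-136658855, plus strand: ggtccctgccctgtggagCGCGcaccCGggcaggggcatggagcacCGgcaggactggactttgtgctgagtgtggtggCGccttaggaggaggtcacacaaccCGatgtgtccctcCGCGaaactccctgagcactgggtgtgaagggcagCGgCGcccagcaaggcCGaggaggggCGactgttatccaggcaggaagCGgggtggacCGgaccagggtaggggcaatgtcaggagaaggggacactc
CXXC5, chr5:139659305-139659554, plus strand: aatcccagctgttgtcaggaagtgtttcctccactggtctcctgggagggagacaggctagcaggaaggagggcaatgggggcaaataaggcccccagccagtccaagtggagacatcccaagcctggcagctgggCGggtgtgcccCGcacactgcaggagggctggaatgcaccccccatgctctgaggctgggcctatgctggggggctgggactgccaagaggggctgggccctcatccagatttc
ERG, chr21:38498478-38498727, minus strand: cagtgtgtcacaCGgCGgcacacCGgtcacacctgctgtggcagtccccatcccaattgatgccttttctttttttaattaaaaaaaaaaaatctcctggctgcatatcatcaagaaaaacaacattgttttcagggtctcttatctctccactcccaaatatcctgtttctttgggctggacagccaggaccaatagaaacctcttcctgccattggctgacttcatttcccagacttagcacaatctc
H2BC3, chr6:26043714-26043963, minus strand: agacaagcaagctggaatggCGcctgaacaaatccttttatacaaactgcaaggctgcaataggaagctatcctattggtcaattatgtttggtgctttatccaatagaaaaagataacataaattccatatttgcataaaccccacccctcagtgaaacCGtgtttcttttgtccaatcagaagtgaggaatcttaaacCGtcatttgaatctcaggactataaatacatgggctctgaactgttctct
H3C3, chr6:26045134-26045383, plus strand: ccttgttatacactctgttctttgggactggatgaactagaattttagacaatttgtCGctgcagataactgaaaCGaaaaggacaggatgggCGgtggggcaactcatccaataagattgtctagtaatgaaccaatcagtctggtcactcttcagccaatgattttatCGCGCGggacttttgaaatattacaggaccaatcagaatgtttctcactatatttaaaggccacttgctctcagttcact
D2HGDH, which encodes an enzyme that breaks down D-2-hydroxyglutarate, had 36 CG in this window, and EGFL7, which encodes a secreted protein of blood vessels, had 14. CXXC5, a gene of a zinc finger protein of the CXXC class, had 2 at the start shown. ERG, an ETS transcription factor gene of blood stem cells and endothelium, and the histone genes H2BC3 and H3C3 had 3, 3 and 6.

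The same rule applied between other pairs of lists shows how often wide peaks lack a counterpart. For 6T-CEM against both Jurkat lists the share of wide peaks was 17.9% (17.1 to 18.6). Against single Jurkat lists it was 43.0% for replicate 1, the shorter list, and 21.4% for replicate 2. Between the Jurkat replicates themselves, 32.2% of 7797 wide replicate 2 peaks had no replicate 1 peak within 1 kb, and 8.06% of 5769 wide replicate 1 peaks had no replicate 2 peak. Against the same single list, the share was 43.0% for 6T-CEM and 32.2% for Jurkat replicate 2 where the list was replicate 1, and 21.4% for 6T-CEM and 8.06% for Jurkat replicate 1 where it was replicate 2. In the other direction, 9.33% of wide Jurkat replicate 1 peaks and 13.9% of wide replicate 2 peaks had no 6T-CEM peak within 1 kb.

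**Figure D1:**
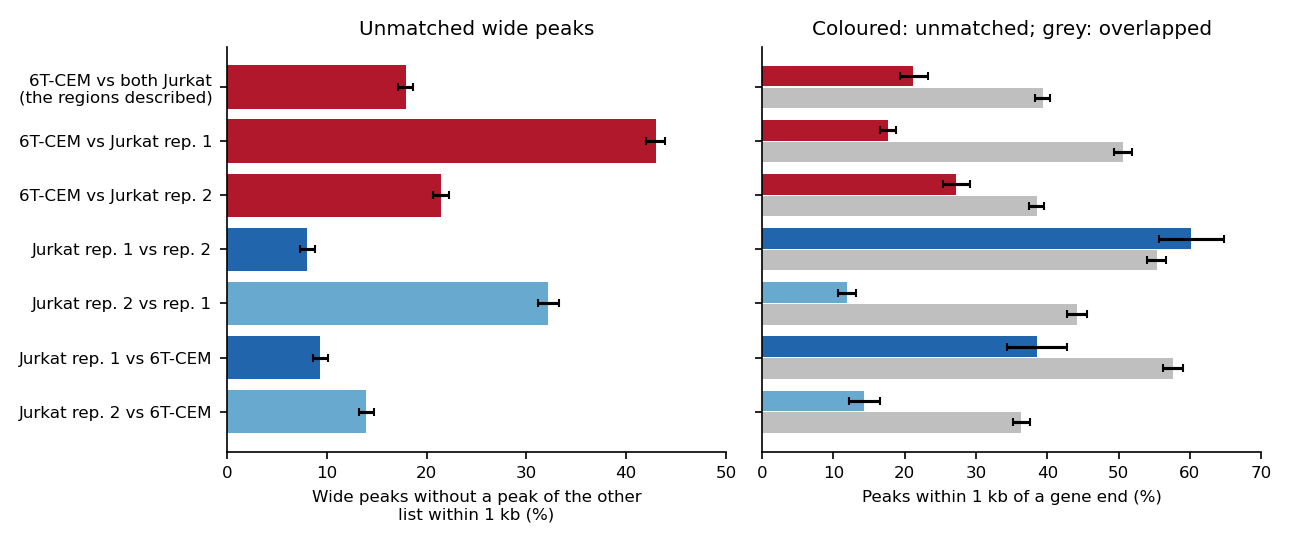
The left panel plots the percent of wide peaks (1000 bp or more) of the list named first that had no peak of the list named second within 1 kb, and the right panel the percent lying within 1 kb of a gene end among those unmatched peaks (coloured) and among wide peaks that the other list overlapped (grey). Bars are shares and lines are exact 95% intervals. Against Jurkat replicate 1 the share is 43.0% for 6T-CEM and 32.2% for Jurkat replicate 2, and against Jurkat replicate 2 it is 21.4% for 6T-CEM and 8.06% for Jurkat replicate 1.

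Positions in the genome differed between the regions and the 8360 wide 6T-CEM peaks that a Jurkat peak overlapped. Of the regions, 21.2% lay within 1 kb of an end of a protein-coding gene (19.4 to 23.2), compared with 39.4% of the overlapped peaks (38.3 to 40.4). A further 52.3% lay inside a gene away from its ends, compared with 45.3% of the overlapped peaks. The remaining 26.5% lay outside genes, compared with 15.3%. Counted by start site in place of gene ends, 16.4% of the regions and 33.9% of the overlapped peaks lay within 1 kb. Regions over 25 kb from any protein-coding gene made up 13.5%, compared with 7.07% of the overlapped peaks. Other pairs of lists gave a lower share at gene ends among unmatched wide peaks as well, with 1 exception. For 6T-CEM it was 17.6% of peaks without a Jurkat replicate 1 peak, compared with 50.6% of overlapped ones, and 27.2% without a replicate 2 peak, compared with 38.5%. Between the Jurkat replicates it was 11.9% of replicate 2 peaks without a replicate 1 peak, compared with 44.1% of overlapped ones. For Jurkat peaks without a 6T-CEM peak it was 38.5% in replicate 1, compared with 57.6%, and 14.3% in replicate 2, compared with 36.3%. The exception was replicate 1 peaks without a replicate 2 peak, with 60.2% compared with 55.4%.

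Their median width was 1338 bp and 63.0% were under 1500 bp, while 84 regions were 3000 bp or wider and the widest had 9282 bp. Their fold enrichment, the authors' value for how far a peak rises over the caller's background, ran from 1.95 to 26.9 with a median of 5.17, compared with 5.66 in the overlapped peaks. Wider 6T-CEM peaks were less often without a Jurkat counterpart: 23.9% of those of 1000 to 1500 bp were, 16.2% of those up to 2000 bp, 12.3% of those up to 3000 bp and 6.34% of wider ones. The rule used both width and the absence of a Jurkat peak, and a wider peak spans more bases that a Jurkat peak can touch, so a fall with width is partly fixed by construction. The share also fell over 4 bins of fold enrichment with about equal numbers of peaks, with 22.3%, 18.4%, 16.4% and 14.3% from the lowest bin to the highest. Across the regions, width and fold were weakly related (Spearman's rho = 0.17 over 1870 peaks of 1 library). In the narrowest class 18.5% of the regions lay within 1 kb of a gene end, compared with 41.5% of overlapped peaks of that width. From 3000 bp up the shares were 33.3% (23.4 to 44.5) and 35.5% (32.8 to 38.2), and their intervals overlapped.

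**Figure D2:**
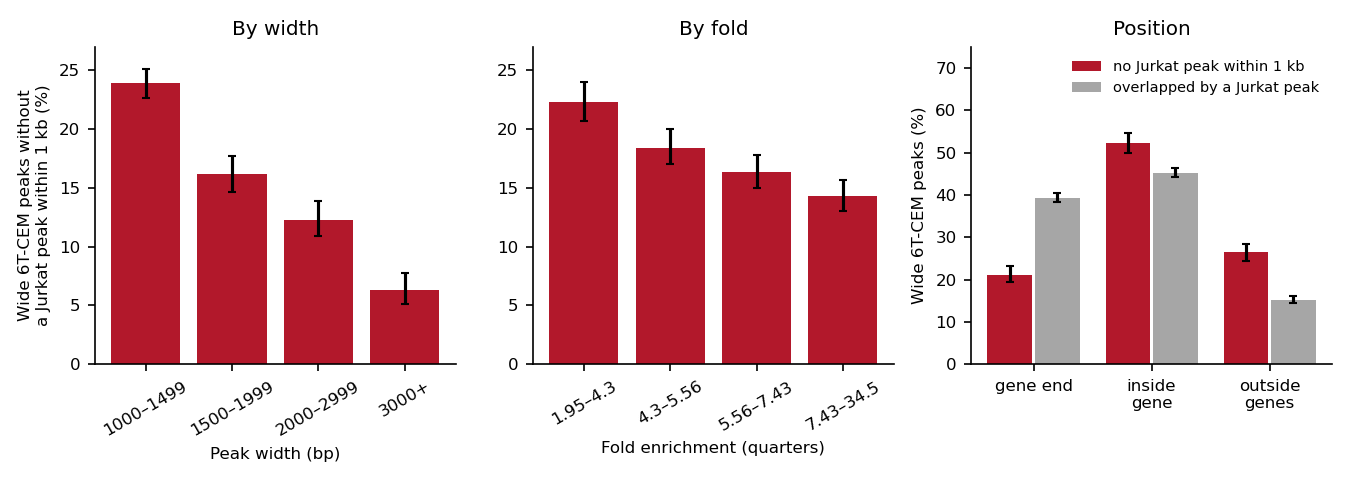
The left and middle panels plot the percent of wide 6T-CEM peaks without a Jurkat peak within 1 kb against peak width in bp and against 4 bins of the authors' fold enrichment, and the right panel the percent of peaks at gene ends (within 1 kb), inside genes and outside genes. Lines are exact 95% intervals. The share falls with width to 6.34% at 3000 bp or more, and 21.2% of the regions lie at gene ends compared with 39.4% of overlapped peaks.

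The thresholds cut through a continuous range. The narrowest regions, of 1000, 1000 and 1001 bp, lay in AKAP7, CDH23 and TIAM1, and 338 regions exceeded the criterion by less than 100 bp. Another 3 peaks of 999 bp just missed the width criterion, in SLC1A7, in OXR1 and between NUDT14 and BRF1. The regions nearest to a Jurkat peak, at 1004, 1006 and 1013 bp from a replicate 2 peak, lay in UXS1, BCL11A and PEX14. Wide peaks in TWF2, near CYP4F2 and in ITGAE, with a Jurkat peak at 995, 992 and 988 bp, were just outside.

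Jurkat peaks were nevertheless common in the wider surroundings. A Jurkat replicate 1 peak lay within 25 kb of 38.6% of the regions and a replicate 2 peak within 25 kb of 61.6%. Within 100 kb these shares were 68.8% and 83.4%. The median distance to the nearest Jurkat peak of either library was 13192 bp, and 28.9% of the regions lay 1 to 5 kb from one. Only 62 regions, or 3.32%, lay more than 500 kb away. Those 62 were at gene ends in 45.2% of cases (32.5 to 58.3), compared with 15.9% of the regions 1 to 5 kb from a Jurkat peak (12.9 to 19.3). Other 6T-CEM peaks were close by as well: 70.5% of the regions had one within 5 kb, and so had 71.3% of the overlapped wide peaks. At the larger distance commonly used to stitch enhancers into super-enhancers the shares were 81.2% and 80.4%.

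The share of wide 6T-CEM peaks belonging to the regions differed among chromosomes. It was highest on chromosome 8, with 78 of 269 peaks or 29.0% (23.6 to 34.8), followed by chromosomes 13 (25%), 4 (24.7%) and 3 (23.8%). It was lowest on chromosome 22, with 54 of 497 peaks or 10.9% (8.27 to 13.9), and low on the gene-rich chromosomes 19 (12%) and 17 (12.8%). On chromosome 8 the Jurkat replicates also matched each other less well in 1 direction, since 23% of wide replicate 1 peaks there had no replicate 2 peak within 1 kb, compared with 8.06% over all chromosomes. On chromosome 22 that value was 1.88%, and 47.7% of wide replicate 2 peaks had no replicate 1 peak. The part of library differences in the order of chromosomes was not tested.

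**Figure D3:**
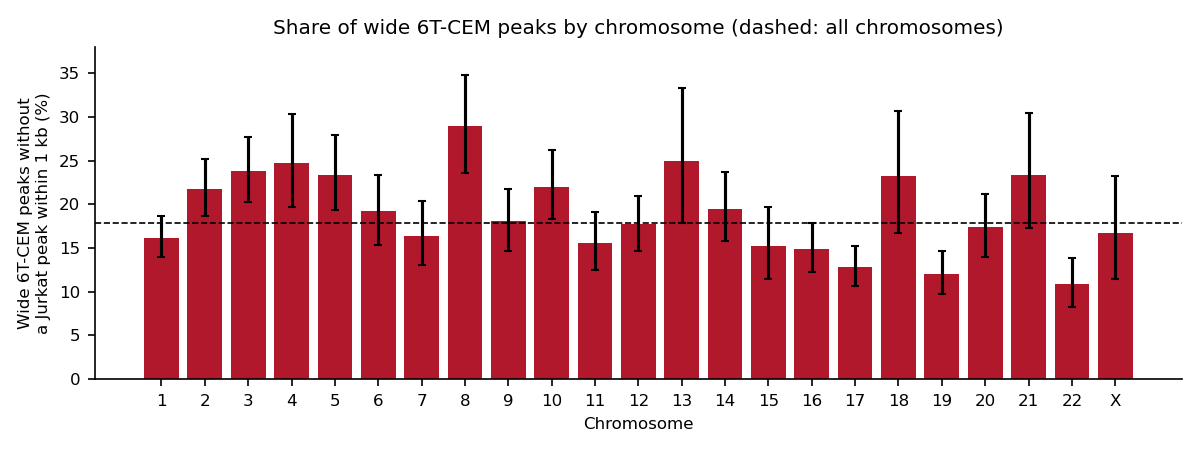
The percent of wide 6T-CEM peaks without a Jurkat peak within 1 kb is plotted for each chromosome, with exact 95% intervals as lines and the value over all chromosomes, 17.9%, dashed. Chromosome 8 is highest at 29.0% and chromosome 22 lowest at 10.9%.

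Long stretches without any Jurkat peak held a small part of the regions. There were 52 stretches of at least 500 kb with 10 or more 6T-CEM peaks and no Jurkat peak, and 42 of them held 114 of the regions, 6.10% in all. The stretch around HES1 on chromosome 3, chr3:193906480-194485458, held 18 of them, and that around GAS1 and DAPK1 on chromosome 9 held 8.

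The widest regions lay mostly inside genes. The widest had 9282 bp at chr10:79068171-79077452 across the end of ZMIZ1 with the lower coordinate. The gene encodes a cofactor of NOTCH1 in T cells, and the region had a fold of 11.9 and Jurkat peaks 19.4 kb (replicate 1) and 4.05 kb (replicate 2) away. A further region of 6567 bp lay elsewhere in the same gene. ZMIZ1 as a whole was not free of acetylation in Jurkat: within the gene and 25 kb around it peaks covered 140156 bp in 6T-CEM, 14650 bp in Jurkat replicate 1 and 91780 bp in Jurkat replicate 2. A region of 9264 bp and fold 5.18 overlapped ADORA2A, an adenosine receptor gene. One of 7654 bp at chr1:109801527-109809180 lay outside genes, 37.6 kb from EPS8L3 and 101 kb from CSF1, the gene of the macrophage growth factor. QSOX2, a sulfhydryl oxidase gene, held 1 of 7229 bp and fold 11.8. CCND3, which encodes cyclin D3, held 1 of 5168 bp and fold 6.48.

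NKX2-5, the cardiac homeobox transcription factor gene that can act as an oncogene in T-ALL, lay entirely under a single region of 5980 bp at chr5:173229548-173235527 with a fold of 12.2. The gene and its 25 kb surroundings held no other 6T-CEM peak. Jurkat had 0 bp in both libraries, and the nearest Jurkat peaks were 172 kb (replicate 1) and 245 kb (replicate 2) away.

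UBASH3B, which encodes a phosphatase that dampens T-cell receptor signalling, had the cluster with most bases when regions within the same stitching distance were joined. The cluster spanned 41.1 kb of chromosome 11 with 6 regions and 14263 bp of them, the widest with 5518 bp. Over that span 6T-CEM had 20 peaks, Jurkat replicate 1 had none and Jurkat replicate 2 had 2 peaks of 736 bp in all. The whole gene and 25 kb around it were not free of Jurkat peaks. There 6T-CEM had 66685 bp under 56 peaks, Jurkat replicate 1 had 2910 bp under 2 and Jurkat replicate 2 had 8644 bp under 12. Between HES1 and CPN2 lay a cluster of 7 regions (13227 bp), 110 kb from HES1 and 61.7 kb from CPN2, and a cluster of 3 regions (11475 bp), 159 kb from HES1 and 23.7 kb from CPN2. Long noncoding RNA genes lay within both spans, and no Jurkat peak did. A cluster of 5 regions covering 12816 bp ran from within ING5 to the start of its neighbour D2HGDH, again with no Jurkat peak. The region of 5792 bp at one end of it held the D2HGDH start site. COL18A1, a basement membrane collagen gene, held 4 regions covering 11494 bp, and every 6T-CEM peak in that span was one of the regions. Most regions stood alone, however, since 1220 of the 1870 had no other region within that distance.

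Added up per gene and 25 kb around it, long genes led. XXYLT1, whose product extends sugar chains on NOTCH, held 16 regions covering 29756 bp. 6T-CEM had 69491 bp under peaks there, Jurkat replicate 1 had 0 bp and Jurkat replicate 2 had 2843 bp. XYLT1, which starts glycosaminoglycan chains, held 14 regions with 27111 bp. Its totals were 53682 bp in 6T-CEM, 0 bp in Jurkat replicate 1 and 665 bp in Jurkat replicate 2. CDH4, a cadherin gene, held 15 regions although Jurkat replicate 2 covered 61836 bp of it. COL23A1, RAP1GAP2 and PTPRF held 13, 14 and 8 regions, and Jurkat replicate 2 had peaks at each. UBASH3B, MVB12B and ZMIZ1 followed, with 8, 10 and 2 regions.

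The most enriched regions were narrower than these and lay more often outside genes. The highest fold, 26.9, belonged to a region of 2402 bp at chr6:14672659-14675060 in the wide interval between CD83 and JARID2, 536 kb and 571 kb from them. A Jurkat replicate 2 peak lay 2.16 kb away and a replicate 1 peak 35.1 kb away. One of 2015 bp with a fold of 21 lay between AFG2A, 26.7 kb away, and SPRY1, 48.6 kb away. On chromosome 6 a region of 1419 bp with a fold of 19.7 lay 25 kb downstream of MYB, a proto-oncogene of blood progenitors, and another with a fold of 10.6 lay 15.6 kb downstream. Around MYB 6T-CEM had 16042 bp under 23 peaks, Jurkat replicate 1 had 5133 bp and Jurkat replicate 2 had 4238 bp, under 4 peaks each. A region with a fold of 18.8 lay 19.8 kb from ETV5, an ETS factor gene. ERAP1, which encodes a peptidase that trims antigen peptides, held 1 with a fold of 19.3. Of the 15 most enriched regions, those at ERG, H2BC3 with H3C3, and NINJ2 contained a start site listed in the promoter table.

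The region at ERG had 1841 bp and a fold of 20.1 and contained 2 of the gene's start sites, with its summit 584 bp from the start whose upstream bases are printed above. Within ERG and 25 kb around it, 6T-CEM had 32 peaks with 26284 bp, Jurkat replicate 1 had 3 peaks with 7148 bp and Jurkat replicate 2 had 15 peaks with 11455 bp, so both lines carried the mark in the gene at other places. The region over H2BC3 and H3C3 had 2969 bp and a fold of 18.5. These genes have near-identical copies nearby, so their peaks are uncertain.

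**Figure D4:**
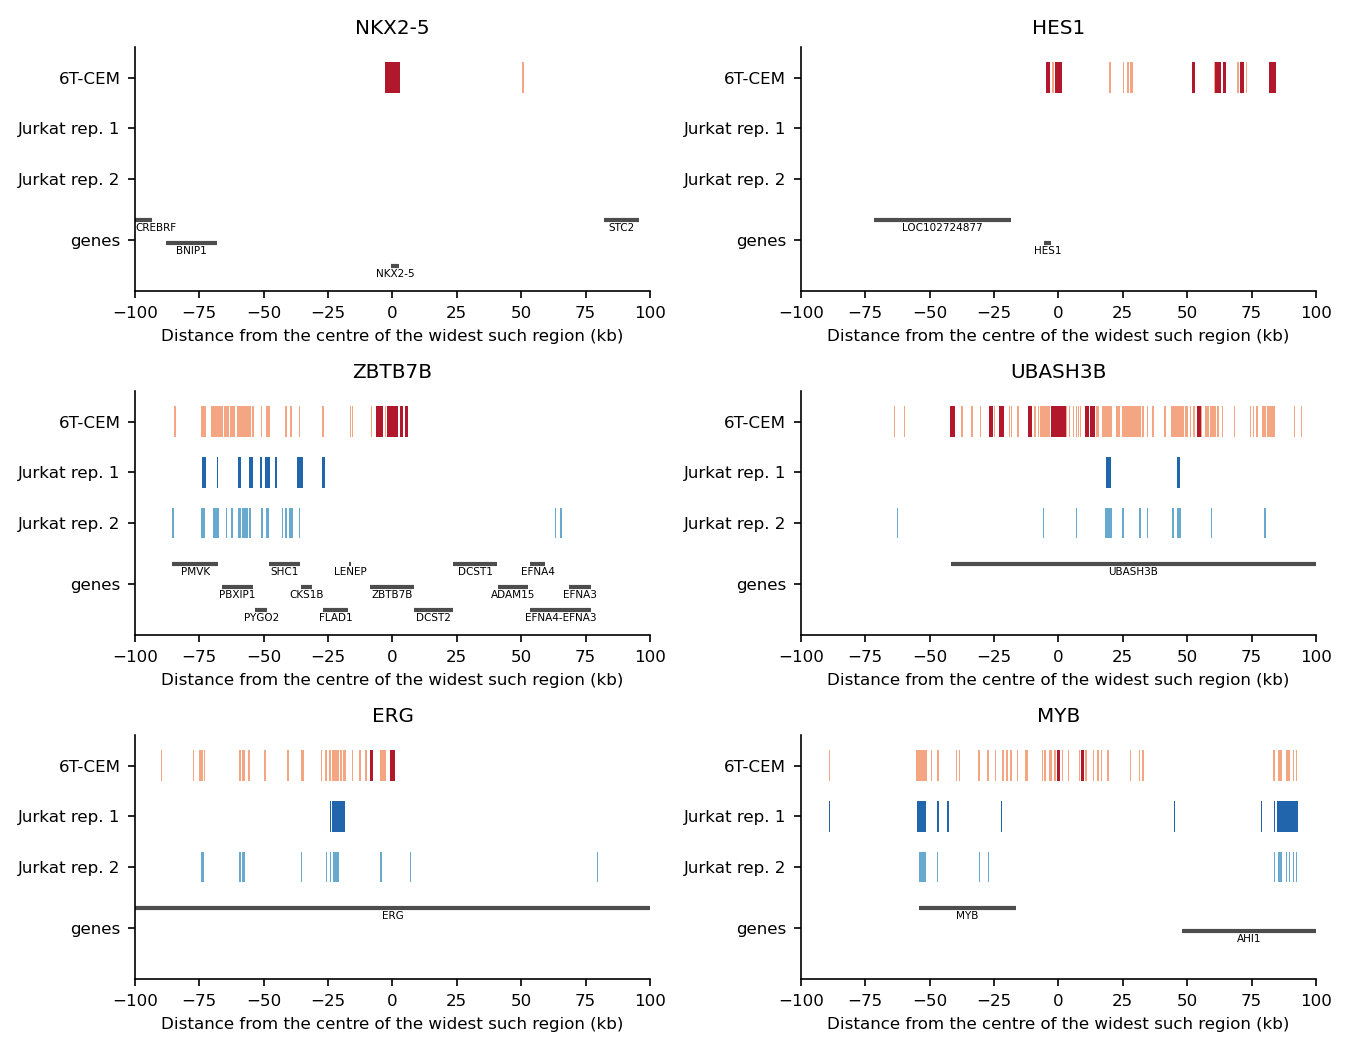
Peaks of 6T-CEM (dark red for the regions described, light orange for its other peaks), Jurkat replicate 1 and Jurkat replicate 2 are drawn at their positions with protein-coding genes below, within 100 kb of the centre of the widest such region at 6 genes. The narrowest peaks are drawn wider than they are. NKX2-5 and HES1 have no Jurkat peak in view, while the other 4 panels do. The Jurkat peak nearest to the widest region is 2.71 kb away at UBASH3B and 3.23 kb at ERG, and at ZBTB7B and MYB the nearest are 23.9 kb and 21.4 kb away.

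Genes of 14 lists were read for a region inside the gene or within 25 kb of it. Over all 19974 protein-coding genes 9.50% had one. Among the 12883 of them with a 6T-CEM peak in that window the share was 14.7%. The list shares below are over all genes of a list. Of the T-lineage transcription factor genes, 18 of 20 had a 6T-CEM peak in the window, and of the T-cell surface and signalling genes 20 of 23. Median gene length was 24.2 kb over all genes and 6.32 to 97.3 kb in the lists. The lists were drawn up with earlier results of these data known, and longer genes have larger windows, so the counts are descriptions. Of 1898 genes with a region, 1301 had peak bases in both Jurkat libraries and 298 had none in either.

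Among T-ALL transcription factor oncogenes, 6 of 18 had a region, 33.3% (13.3 to 59.0), and 4 of those 6 had no Jurkat peak in the window. LMO2, whose product bridges transcription factors in blood stem cells, had 4399 bp under 6T-CEM peaks and 0 bp in each Jurkat library, with 1 region of 1358 bp. HHEX, a homeobox gene of blood progenitors, had 4112 bp and 0 bp in each Jurkat library, and its region of 3562 bp held the start site. At MEF2C, whose product regulates genes of lymphoid progenitors, 6T-CEM peaks covered 2256 bp and no Jurkat peak was found. MYCN, a relative of MYC, had 1 region of 2706 bp as its only 6T-CEM peak, 0 bp in Jurkat replicate 1 and 1116 bp in Jurkat replicate 2. TAL1, LYL1, LMO1, TLX1, TLX3 and MYC had no such region.

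The list of ETS factors and RAS-ERK feedback genes had the most, 9 of 17 or 52.9% (27.8 to 77.0). ERK signalling turns on these feedback genes, whose products then restrain it. SPRY1, a feedback inhibitor gene, had 5161 bp under 6T-CEM peaks and none under Jurkat peaks. DUSP6, which encodes a phosphatase of ERK, had 5792 bp and 0 bp in each Jurkat library, with a region of 4040 bp across its start. Peaks of 6T-CEM covered 7454 bp at FGFR1, a receptor kinase gene, and no Jurkat peak was found there. ETV5 had 17591 bp with 3 regions, 0 bp in Jurkat replicate 1 and 316 bp in Jurkat replicate 2. ETV6, FLI1 and SPRED2 also had regions, but Jurkat peaks covered 7671 to 60250 bp at each of them. The feedback genes SPRY2, SPRY4, DUSP4 and DUSP5 and the ETS genes ETV1 and ETV4 had no peak in any library. SPRED1 and EGR1 had peaks in every library but no region.

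In the NOTCH list 6 of 21 genes had a region, 28.6%. At HES1, a NOTCH target that encodes a repressor, 6T-CEM peaks covered 5301 bp and Jurkat peaks 0 bp. Its regions had 1414 bp in the gene and 2366 bp at 1.83 kb from it. The corepressor genes TLE1 and TLE4 had 14020 bp and 3683 bp under 6T-CEM peaks and none under Jurkat peaks. JAG1, a NOTCH ligand gene, had 2504 bp in 6T-CEM, 0 bp in Jurkat replicate 1 and 1091 bp in Jurkat replicate 2. The regions counted for MAML1 and PTCRA lay outside these genes. That for MAML1 lay 16.6 kb away, over LTC4S, and the farther of 2 for PTCRA 21.7 kb away. NOTCH1 itself had no such region, nor had DTX1, HES4, NRARP, HEY1 or NOTCH3. DTX1 had 17331 bp under peaks in 6T-CEM, 9821 bp in Jurkat replicate 1 and 30333 bp in Jurkat replicate 2. HES4 had 3350, 2504 and 5543 bp in that order, and NOTCH3 had 298, 595 and 0 bp. NRARP had 647 bp in 6T-CEM only, and HEY1 had no peak.

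Of 20 T-lineage transcription factor genes 5 had a region, 25%, and each also had Jurkat peaks in the window. ZBTB7B, which directs thymocytes to the CD4 fate, had 4 regions with 9633 bp of a total of 11534 bp in 6T-CEM, compared with 1053 bp in Jurkat replicate 1 and 0 bp in Jurkat replicate 2. The regions at ZBTB7B had low folds, 2.81 to 4.03. GATA3, which T cells need at several stages, had 3 regions in 16731 bp, compared with 2524 bp in Jurkat replicate 1 and 6151 bp in Jurkat replicate 2. Of these regions 1 lay in GATA3, and the others lay 10.1 kb and 11.9 kb outside it. RUNX1 and IKZF1 had 2 and 1 regions inside the gene, of 1053 to 1144 bp. TCF7 had 2, of 1236 and 1372 bp, but both lay in VDAC1, 17 kb and 14 kb outside TCF7.

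T-cell surface and signalling genes had 6 of 23, 26.1%. Some of these regions lay outside the listed gene. That counted for CD4 lay 9.56 kb from it and 0.501 kb from LAG3, with a fold of 2.63. That counted for CD5 lay 1.11 kb from it and 0.109 kb from VPS37C, with a fold of 2.36. CD8A, a co-receptor gene of cytotoxic T cells, held a region of 1116 bp with a fold of 2.49. It also counts for the neighbour CD8B, 23.2 kb away. CD8A had 7571 bp in all in 6T-CEM, 0 bp in Jurkat replicate 1 and 2051 bp in Jurkat replicate 2. LCP2, the gene of the adaptor SLP-76, had a region with a fold of 9.91 inside it and another with a fold of 5.27, 21 kb outside. Jurkat peaks lay 3.78 kb (replicate 1) and 3.85 kb (replicate 2) from the first. Among thymocyte homing and cytokine receptor genes 4 of 13 had a region. CCR9, a chemokine receptor gene of thymocytes, had 3 in 30583 bp, compared with 2022 bp in Jurkat replicate 1 and 10733 bp in Jurkat replicate 2. All 3 overlapped LZTFL1, and those outside CCR9 lay 4.04 kb and 1.25 kb from it. S1PR1, which guides the exit of T cells from the thymus, had 3752 bp under 6T-CEM peaks and none under Jurkat peaks.

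Stem and progenitor genes had 3 of 11, or 27.3% (ERG, LMO2 and BCL11A), developmental homeobox and SOX genes 2 of 17 (SOX4 and FOXB1), and B-cell and NK-cell genes 1 each of 7 and 6. Myeloid genes had 0 of 8 and erythroid and megakaryocytic genes 0 of 6. In the non-blood list TUBB3, a neuronal tubulin gene, was the 1 gene of 8, with 4 regions and 10501 bp under 6T-CEM peaks and none under Jurkat peaks. Only 1 of these regions overlapped TUBB3, and it also overlapped MC1R. The others lay 2.49, 4.62 and 17.5 kb outside TUBB3, the last in DEF8. FOXB1, a forkhead gene of the developing brain, had 4 regions with 9172 bp of its 10105 bp, and 0 bp in each Jurkat library. Of these, 1 overlapped FOXB1 and the others lay 3 to 8.34 kb from it. Of 12 housekeeping genes, GAPDH and RPLP0 had a region, 16.3 kb and 23.7 kb outside the gene.

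**Figure D5:**
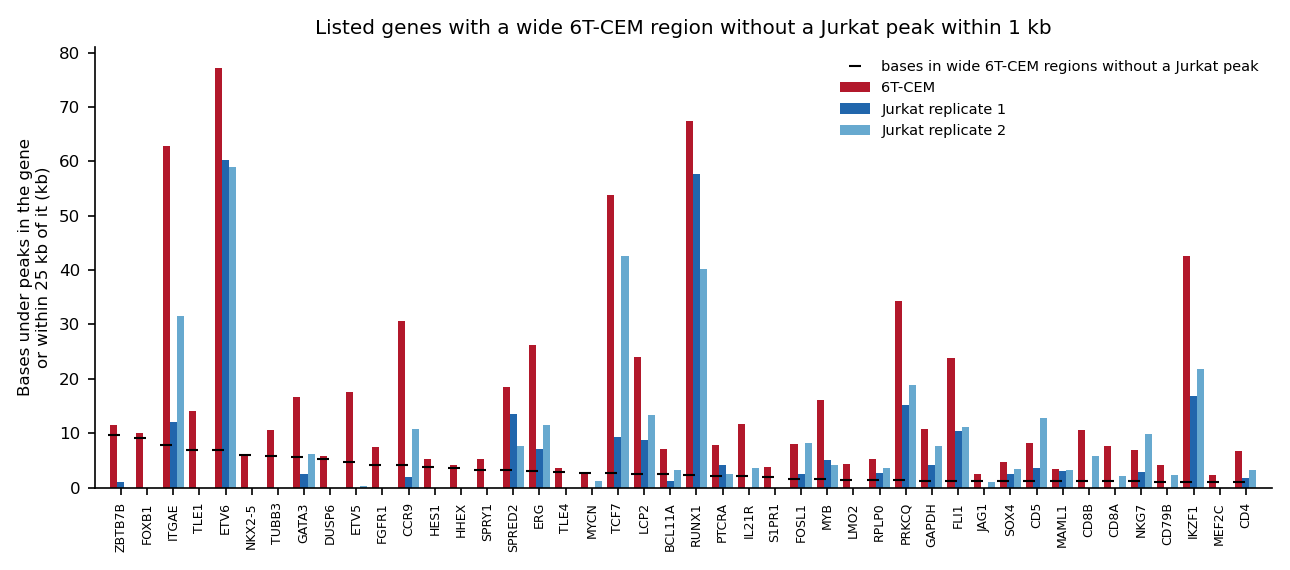
Bars give the bases under peaks in each listed gene and 25 kb around it, in kb, for 6T-CEM, Jurkat replicate 1 and Jurkat replicate 2, and the black marks give the bases of the wide 6T-CEM regions without a Jurkat peak within 1 kb. Genes are ordered by the black marks, from ZBTB7B at 9633 bp downward. Genes such as NKX2-5, HES1, TLE1 and FOXB1 have no blue bar, while ETV6, RUNX1 and TCF7 have tall ones.

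Antigen receptor loci held 17 regions on gene segments, 0.909% of all (0.530 to 1.45), compared with 0.359% of the overlapped wide peaks (0.242 to 0.512). Of these, 11 lay on segments of the immunoglobulin heavy chain locus IGH on chromosome 14, and 2 more lay elsewhere in that locus, with folds of 6.29 to 20.5 over the 13. 6T-CEM had 149 peaks with 141078 bp in IGH, Jurkat replicate 1 had 42 peaks with 41265 bp and Jurkat replicate 2 had 54 peaks with 52897 bp. The T-cell receptor beta locus TRB held 5 on segments, over TRBV1 with TRBV2, TRBV3-1, TRBV4-1, TRBV5-1 and TRBV4-2, with folds of 6.83 to 12.8. The whole of TRB was covered about equally, with 33346 bp in 6T-CEM, 32741 bp in Jurkat replicate 1 and 28368 bp in Jurkat replicate 2. The alpha locus TRA held 1, on TRAV22. Segments of 1 locus are near copies of each other, and the T-cell receptor loci are also rearranged in T cells, so positions in all these loci are uncertain.

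Of 1558 miRNA hairpins of the RefSeq table, 5 overlapped a region. Counted by RefSeq gene type, 0.374% of the regions overlapped a miRNA gene (0.151 to 0.77), compared with 1.03% of the overlapped wide peaks (0.824 to 1.27). Shown is 1 hairpin that lay far from any Jurkat peak, which is a trait the rule selected for. MIR9-2, which encodes a miRNA best known from the nervous system, lay at the edge of a region of 1235 bp with a fold of 8.30 at chr5:88666891-88668125, in the stretch of chromosome 5 that also holds MEF2C. The nearest Jurkat peaks were 398 kb (replicate 1) and 1254 kb (replicate 2) away. Capitals mark the seed, bases 2 to 8.
hsa-miR-9-5p, chr5:88666902-88666924, minus strand: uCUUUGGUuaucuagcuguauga
hsa-miR-9-3p, chr5:88666866-88666887, minus strand: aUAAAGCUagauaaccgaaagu

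The promoters inside the regions were somewhat poorer in CG than those in overlapped peaks. The 286 upstream windows of 250 bases had a median of 19 CG, compared with 22 in 3635 windows whose start lay in an overlapped wide 6T-CEM peak, and 16 over all 22012 windows. Windows with fewer than 5 CG made up 11.2% (7.78 to 15.4) in the regions, compared with 5.53% (4.81 to 6.32) in overlapped peaks. CXXC5, ERG and H2BC3, printed above, are of that kind. The ETS motif CCGGAAG, searched on both strands, was present in 6.64% (4.05 to 10.2) of the windows in the regions, compared with 16.8% (15.6 to 18.1) in overlapped peaks and 10.6% of all windows. The palindromic motif of NRF1 was present in 4.20% (2.19 to 7.21), compared with 10.7% (9.74 to 11.8), and in 6.53% of all. It occurred once in the D2HGDH window. For the TATA box TATAAA, the E-box CANNTG, the RUNX motif TGTGGT, the NK2 homeobox motif TNAAGTG, the TCF and LEF motif CTTTGA, the GATA motif AGATAA and the cyclic AMP response motif TGACGTCA, the shares in the regions were 5.94%, 51.4%, 6.99%, 4.90%, 9.79%, 5.94% and 0.699%. Those in overlapped peaks were 4.87%, 49.8%, 8.78%, 5.39%, 6.19%, 3.30% and 2.61%, and over all windows they were 9.02%, 58.1%, 9.37%, 7.61%, 9.65%, 7.10% and 2.00%. CCGGAAG and the other motifs may overlap each other within a window, several windows of 1 gene share bases, and a match of letters is not evidence of binding.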

How the data were processed

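H3K27ac peak lists of 6T-CEM (1 library) and Jurkat (2 libraries) were used. Build hg38, MACS2 2.2.7 and Bowtie2 2.2.5 are named without options, per the submitters' processing notes. The series text names CUT&Tag, while the labels' protocol speaks of sonicated nuclei. Each list was called on its own library, per the names in the deposited files. The deposited columns are the peak's fold over background (a ratio), a −log10 p-value, a −log10 q-value, a score derived from q, and the summit's offset. They are the authors' values, and the score and p-value were not used. No control for the peak calls is given in the sources used here.

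Other chromosomes than 1 to 22 and X were dropped. The distance between peaks is the number of bases between their nearest edges, and overlap means at least 1 shared base. The 19974 protein-coding genes came from the RefSeq table of GRCh38.p14. Start sites were known for 15812 of them, so both gene ends were used in place of start sites for positions, which departs in part from the design, and start sites are an added alternative chosen after seeing the data. Named regions are the 15 widest, the 15 of highest fold, the 10 largest clusters, the 10 genes with most region bases (1 kept where windows overlapped) and genes of the 14 lists (187 entries, 185 genes, all matched). Some of these are not reported here. The promoter motifs and the antigen receptor, miRNA and chromosome readings were chosen after the lists were seen. The regions and lists were chosen with earlier results of these data known. Sequences are from RefSeq. Alternatives were a −log10 q of 5 or more, equal list length, other distances and widths, joined peaks, each Jurkat library left out and long stretches left out. The scripts were tested on simulated data. Figures used matplotlib 3.10.9. Values came from SciPy 1.17.1 and pandas 2.3.3 on NumPy 2.4.6, in Python 3.11.15.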

Additional observations from a re-analysis of the deposited data

How the results depend on the processing

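No paired analysis was possible because 6T-CEM has 1 H3K27ac library and its label carries no replicate number. The 1870 regions became 692 at a minimum width of 1500 bp and 317 at 2000 bp, and 2239 to 4498 when a Jurkat library was left out, the higher number without replicate 2. At equal list length (16159 peaks each) the rule gave 2097 regions, and 1368 of the 1870 overlapped one of them. The share of wide peaks, 17.9%, was 23.4% at a −log10 q of 5 or more, 24.2% at equal list length, 20.2% with overlap only, 12.7% at 5 kb from Jurkat peaks, 12% (in 2 digits) and 9.86% at 1500 and 2000 bp, 21.9% with joined peaks, 16.8% without long stretches and 21.4 to 43.0% with a Jurkat library left out. The share at gene ends, 21.2%, was 23.4% at 5 kb, 25.9% and 27.1% at 1500 and 2000 bp, 19.1% with joined peaks, 26.8% for ends within 2.5 kb, 16.4% for start sites and 17.6 to 27.2% with a Jurkat library left out. The median fold, 5.17, was 5.33 at a −log10 q of 5 or more, 5.86 at equal list length, 5.86 and 5.89 at 1500 and 2000 bp, 5.39 with joined peaks and 5.13 to 5.16 with a Jurkat library left out. The share with a 6T-CEM neighbour, 81.2%, was 77.0% at a −log10 q of 5 or more, 68.9% at equal list length, 74.5% at 5 kb, 83.8% and 88.3% at 1500 and 2000 bp, 74.5% with joined peaks, 70.5% for neighbours within 5 kb and 77.3 to 87.5% with a Jurkat library left out. The share in long stretches, 6.10%, was 8.35% at 5 kb, 7.66% and 8.83% at 1500 and 2000 bp and 9.78 to 13.4% with a Jurkat library left out. Of 62 alternative values, 22 stayed within 1.5 times a count or within the interval of the main value. Leaving out the regions in long stretches gives no value for the share in them. Stricter widths and fewer Jurkat peaks change the set by construction, and other causes were not tested. Depth is unknown.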
